A study of Mus musculus with 23 samples.

Results

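The guanylate-binding protein (Gbp) genes were followed through MC38 tumors of 6 host lines that had received an antibody against PD-1 or a control antibody. The members were taken by name as the 10 genes Gbp2b, Gbp2, Gbp3, Gbp5, Gbp7, Gbp4, Gbp6, Gbp8, Gbp9 and Gbp10, of 26869 genes measured. All 10 passed the minimum of 5 expected counts summed over the tumors of a fit, so none was lost to a filter. Over all tumors, 7 of the 10 were higher in tumors of responder than of non-responder hosts, beside 7.66% of all genes. Within responder hosts 9 of the 10 were higher after the antibody by DESeq2, beside 4.85% of all genes. With edgeR 0 of the 10 were called, as were 0 of 24858 genes. Without the line CC002F1, DESeq2 called 2, beside 1.45% of genes in either direction. Gbp2b showed the widest spread, 90.2-fold between the lowest and the highest tumor, and Gbp9 the narrowest, 2.46-fold.

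MC38 is a colon carcinoma cell line from a C57BL/6 mouse. The cells grew under the skin of female F1 hosts, offspring of C57BL/6J and a line of the Collaborative Cross, a panel of recombinant inbred mice descended from several founder strains, so every host carried C57BL/6J chromosomes beside those of its line. The responder (R) hosts were C57BL/6J x CC001/UncJ, C57BL/6J x CC002/UncJ and C57BL/6J x CC075/UncJ (CC001F1, CC002F1 and CC075F1), and the non-responder (NR) hosts were C57BL/6J x CC036/UncJ, C57BL/6J x CC079/TauUncJ and C57BL/6J x CC080/TauUncJ (CC036F1, CC079F1 and CC080F1), with the class of each line taken from the study's text. All hosts received the cells at 8 to 12 weeks of age, then 200 µg of aPD1 or of isotype control antibody once tumors measured 75 to 110 mm3, and tumors were taken 48 h later. Each of the 12 groups of line and antibody held 2 tumors, except that CC080F1 with aPD1 held 1, giving 12 R and 11 NR tumors.

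Bulk tumor RNA holds transcripts of cancer, stromal and immune cells together, and a lower level from fewer cells of a type cannot be told apart from a lower level per cell. Library totals ran from 14494014 to 71868253 expected counts, with 6 shallow libraries of at most 18354585 (2 R and 4 NR) and 17 of at least 37242363. Shisal2b, the MC38 marker of the study, was detected in every tumor at 460.1 to 1138 normalized counts. Markers of colon epithelium were sparse: Cdx1 was at 0 in 9 tumors and Vil1 at 0 in 4, and 5 of the 6 colon markers had values. Nothing in the labels says whether tumors of a group came from separate cages or days, so p-values measure the spread between these tumors.

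Gbp genes encode large GTPases of the dynamin superfamily that cells make after interferon, above all interferon gamma. The proteins assemble on membranes of intracellular pathogens and on the vacuoles that hold them, and they help to trigger caspase-11 and other inflammasome responses. Gbp2b (an older symbol is Gbp1), Gbp2 and Gbp5 end in a motif that receives a lipid anchor, whereas the other members lack it.

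The 10 genes lie in a pair of clusters. On GRCm38, chromosome 3 carries 5 members on the plus strand, from Gbp5 (142493978 to 142522344) through Gbp7, Gbp3 and Gbp2b (142594847 to 142619179) to Gbp2 (142620602 to 142638008). Chromosome 5 carries the other 5 on the minus strand, from Gbp8 (105014150 to 105139540) to Gbp6 (105270702 to 105293698). RefSeq promoter windows (GRCm38.p6, 250 bases before to 50 bases after the start) were matched for 5 of the 10 members, those of chromosome 3, and not for Gbp4, Gbp6, Gbp8, Gbp9 and Gbp10. The promoters of Gbp2b and Gbp2, neighbouring genes whose levels differed most in their spread, and of Gbp7 are printed from 250 to 1 bases before the start, on the plus strand and in lower case. Their windows are chr3:142594597-142594846, chr3:142620413-142620662 and chr3:142530086-142530335. Capitals mark, on either strand, the letters GAAA followed after any 2 bases by GAAA again, a core of the interferon-stimulated response element (ISRE), and the letters TTCNNNGAA, a core of the gamma-activated site (GAS), where N is any base and no 2 marked stretches overlap in these 3 sequences.
Gbp2b: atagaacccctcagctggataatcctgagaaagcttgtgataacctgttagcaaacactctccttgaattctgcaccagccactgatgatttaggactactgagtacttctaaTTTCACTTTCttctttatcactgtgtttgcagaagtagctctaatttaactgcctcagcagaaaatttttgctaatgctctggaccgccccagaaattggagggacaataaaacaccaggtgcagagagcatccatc
Gbp2: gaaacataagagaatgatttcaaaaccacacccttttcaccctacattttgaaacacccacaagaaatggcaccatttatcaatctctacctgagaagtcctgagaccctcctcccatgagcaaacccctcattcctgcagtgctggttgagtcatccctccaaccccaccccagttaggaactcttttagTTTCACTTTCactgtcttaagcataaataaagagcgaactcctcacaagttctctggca
Gbp7: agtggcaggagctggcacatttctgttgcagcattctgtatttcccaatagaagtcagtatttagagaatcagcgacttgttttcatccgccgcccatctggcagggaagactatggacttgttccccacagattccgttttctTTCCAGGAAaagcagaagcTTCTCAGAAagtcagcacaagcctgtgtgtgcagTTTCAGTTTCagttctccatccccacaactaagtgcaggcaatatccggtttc

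The 5 chromosome 3 members had 6 promoter windows, of which 5, one for each gene, had a match to the ISRE letters, against 3.44% of the 32851 mouse promoters of this length. The other window, a second start of Gbp3, had no match to either motif. The match lay 137 bases before the start in Gbp2b, 59 in Gbp2, 53 in Gbp7 and 165 in Gbp5, and Gbp3 had 2 overlapping matches at 45 and 39 bases. These starts are RefSeq starts and can differ from the GENCODE gene coordinates above. The bases printed or searched before the Gbp5 start (142496684 to 142496933) lay inside those coordinates. The windows of Gbp2 and Gbp3 with a match reached into them. Matches to the GAS letters were present in 2 of the 5, Gbp5 and Gbp7, against 8.30% of all promoters, and both motifs together in 0.454%. The ISRE letters of Gbp2b and Gbp2 were the same, TTTCACTTTC on the plus strand, although the genes differed in how widely their levels varied. A match of letters is a description and does not show a bound site.

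Levels differed widely between members. Scaled to the length of the joined exons and averaged over the 23 tumors, Gbp2 was highest with 6243 normalized counts per kb, followed by Gbp7 (1457) and Gbp3 (1439.6). Gbp9 (844), Gbp4 (720.0) and Gbp6 (578) were intermediate. Gbp5 (299), Gbp8 (205), Gbp2b (188) and Gbp10 (111) were lowest. On this scale Gbp2 made up 46.1% to 55.3% of the summed Gbp level in every tumor, and its level exceeded that of 99.1% of 26160 genes. With the longest transcript as the length, Gbp5 moved to 528 and Gbp4 to 1189 per kb, and the order of Gbp3 and Gbp7 and of Gbp4 and Gbp9 was exchanged.

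Some members share sequence, which matters because the authors' method divides shared reads by estimation. Of 100-base windows along the transcripts, 73.5% of those of Gbp10 and 64.5% of those of Gbp6 occurred in another gene, mostly in Gm43302 or in each other. Gbp7 shared 10.0%, mostly with Gm43802, and the other members at most 4.39%, with 0 for Gbp2b and Gbp2. Values of Gbp6 and Gbp10 are uncertain beyond the errors given for this reason.

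**Figure D1:**
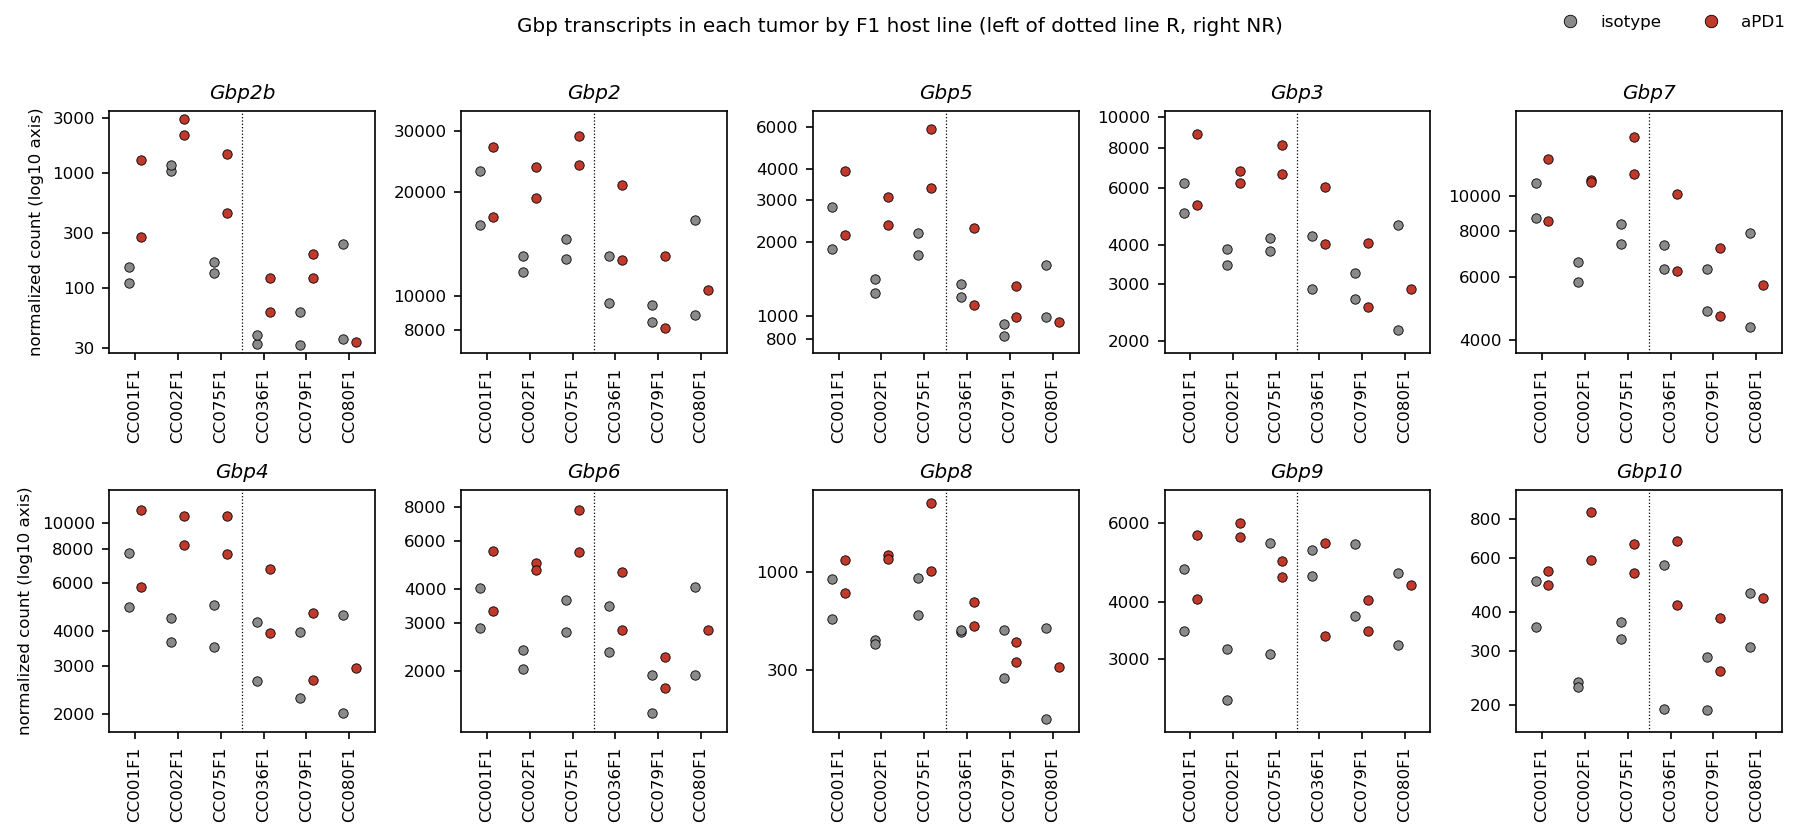
Normalized counts of the 10 Gbp genes (log10 axis, own scale in each panel) for each of the 23 tumors, by F1 host line, with isotype tumors in grey and aPD1 tumors in red. Tumors of the 3 R lines stand left of the dotted line and sit mostly above those of the NR lines, except for Gbp9 and Gbp10, and CC002F1 stands highest for Gbp2b.

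The first question was how the family differed between tumors of R and NR hosts. With antibody as a term, 7 of the 10 members were higher in R tumors by DESeq2 (Benjamini-Hochberg adjusted p under 0.05), beside 7.66% of all 17643 genes called higher. Tumors of a line were treated as independent in tests of class, although class rests on 3 R lines and 3 NR lines. The median log2 difference of the 10 members was 0.63, against -0.00042 for all genes tested. No member was called lower. The members called were all 5 of chromosome 3 and, on chromosome 5, Gbp4 and Gbp8. The ranges of R and NR tumors overlapped for all 10 members. The mean log2 level of each R line exceeded that of each NR line for 8 of 10 members, a pattern that 14.8% of 12055 genes with a mean of at least 100 normalized counts showed.

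Gbp2b, which carries a lipid anchor site, separated the classes most. Normalized counts were 1034 and 1165 in CC002F1 isotype tumors and 2889 and 2120.3 after aPD1. CC001F1 tumors had 109 and 152 with isotype and 277 and 1289 with aPD1, and CC075F1 tumors 134 and 169 with isotype and 1453 and 447 with aPD1. CC002F1 was thus high even without aPD1, and the other R lines reached its isotype level in 1 of 2 aPD1 tumors each.

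Among NR tumors, Gbp2b counts were 32.6 and 38.9 (isotype) and 122 and 61.7 (aPD1) in CC036F1. CC079F1 tumors had 32.0 and 61.5 with isotype and 121 and 195 with aPD1, and CC080F1 tumors had 239.6 and 35.9 with isotype and 33.7 with aPD1. The R and NR ranges overlapped: 4 NR tumors (239.6, 195, 122 and 121) lay above the lowest R tumor at 109, and no NR tumor reached the R median of 740.3. The log2 difference was 3.15 ± 0.51 (SE, 12 R and 11 NR tumors), an 8.90-fold difference with a DESeq2 adjusted p of 2.38e-07. Leaving out the line CC002F1, an alternative added after the values had been seen, brought it to 2.00 with an adjusted p of 0.00175. The difference without any 1 tumor ran from 2.92 to 3.63.

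Gbp5 and Gbp8 came next, at 2.04 and 2.10 times the NR level. Gbp5 ran from 1233 to 5881 normalized counts with a median of 2267 in R tumors and from 825 to 2299 with a median of 1102 in NR tumors, a log2 difference of 1.03 ± 0.20 (DESeq2 adjusted p = 3.71e-05). Gbp8 ran from 411 to 2342 with a median of 926 in R tumors and from 164 to 696 with a median of 478 in NR tumors, a difference of 1.07 ± 0.24 (DESeq2 adjusted p = 0.000245). For both genes the R range began inside the NR range and reached far above it.

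Smaller differences held for Gbp4 (0.82 ± 0.19), Gbp2 (0.64 ± 0.18), Gbp3 (0.62 ± 0.16) and Gbp7 (0.56 ± 0.15), with DESeq2 adjusted p-values of 0.000744 to 0.00559. Each of the 7 members kept its call without any 1 of the 23 tumors. By edgeR 7 of 10 were called, beside 6.70% of genes. Gbp6 missed the threshold narrowly, with a difference of 0.55 ± 0.20 and an adjusted p of 0.0510. It passed in DESeq2 with TMM factors, with filterByExpr, with independent filtering at 0.05 and without CC002F1, and in 7 of the 23 fits without 1 tumor. When Gbp6, Gbp10 and Gm43302 were summed into 1 row, since they share reads, the difference was 0.61 ± 0.19 with an adjusted p of 0.0128.

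Gbp9 and Gbp10 were not called between the classes over all tumors. The log2 difference of Gbp9 was -0.26 ± 0.21 in isotype tumors and 0.31 ± 0.13 in aPD1 tumors, neither called by DESeq2. Gbp9 had a mean of 4420 ± 1170 (SD, n = 12) normalized counts in R and 4308 ± 805 (n = 11) in NR tumors, and the 95% interval of its log2 difference ran from -0.24 to 0.26. Gbp10 had 475 ± 181 in R and 381 ± 154 in NR tumors, with an interval of -0.13 to 0.59. Set against Gbp4, a chromosome 5 neighbour, there were 46.9 to 108.6 counts of Gbp9 per 100 of Gbp4 in R tumors (median 68.2) and 79.8 to 173 in NR tumors (median 130.4), as a description with no test.

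Without the 6 shallow libraries, 5 of 10 members were called (Gbp2b, Gbp5, Gbp7, Gbp4 and Gbp8), beside 9.83% of all genes, and the log2 differences were 0.49 for Gbp2 (DESeq2 adjusted p = 0.178) and 0.50 for Gbp3 (DESeq2 adjusted p = 0.0520). Over all 23 tumors, DESeq2 called all 6 T and NK cell markers higher in R tumors, beside 7.66% of all genes called higher. Also higher were 4 of 6 monocyte and macrophage markers (Adgre1, Cd68, Csf1r and C1qa). So were 2 of 3 cDC1 markers and Ptprc, a marker of all leukocytes. Of 4 endothelial markers 1 was higher, and 0 markers of B cells, cDC2, plasmacytoid dendritic cells, fibroblasts and granulocytic cells were called. The summed T and NK markers ran from 1234 to 2473 normalized counts in R isotype, 1125 to 6551 in R aPD1, 634 to 1716 in NR isotype and 669 to 1269.7 in NR aPD1 tumors. The macrophage sum ran from 57254 to 114068 in R isotype, 94572 to 159977 in R aPD1, 47234 to 103491 in NR isotype and 59786 to 90089 in NR aPD1 tumors. No marker of T and NK cells or of macrophages was at 0 in any tumor. The part of these markers in the Gbp differences was not tested.

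**Figure D2:**
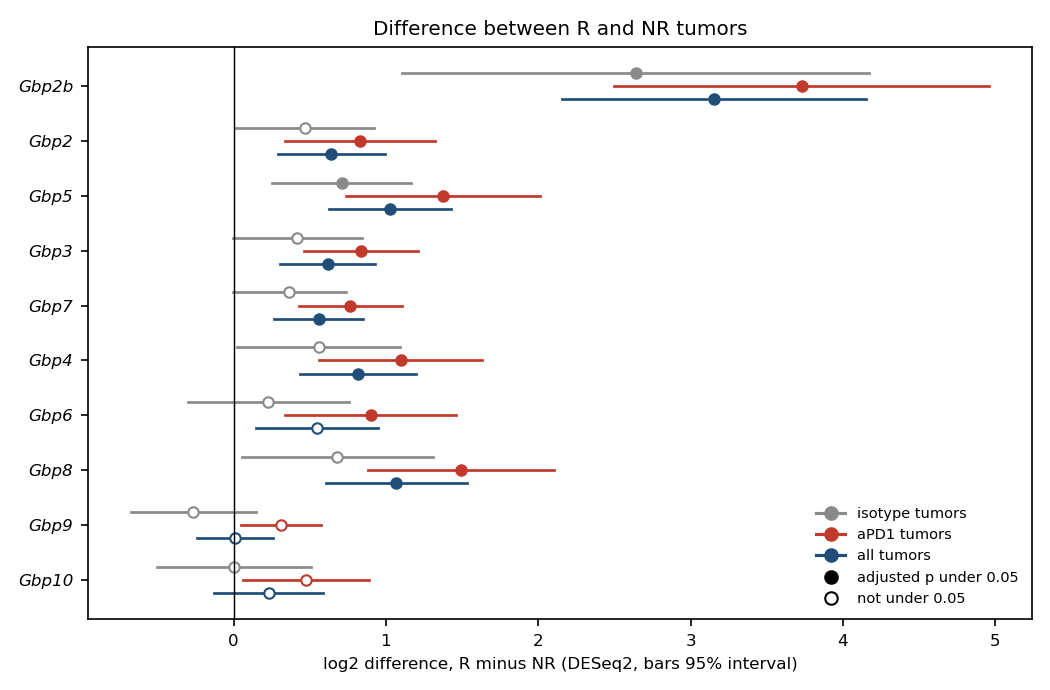
Log2 difference of each Gbp gene between R and NR tumors (DESeq2) in isotype tumors, aPD1 tumors and all tumors, with 95% intervals as bars and filled points for an adjusted p under 0.05. Gbp2b lies highest in all 3 sets with the widest interval. The intervals of Gbp9 and Gbp10 include 0 in isotype tumors and over all tumors. Those of Gbp3, Gbp7 and Gbp6 also include 0 in isotype tumors.

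The isotype tumors show the level without aPD1. Here 2 of 10 members were called higher in R tumors, Gbp2b and Gbp5, beside 2.29% of 14995 genes called higher. Gbp2b ran from 109 to 1165 normalized counts with a median of 161 in the 6 R tumors and from 32.0 to 239.6 with a median of 37.4 in the 6 NR tumors, a log2 difference of 2.64 ± 0.78 (DESeq2 adjusted p = 0.0225). Gbp5 ran from 1233 to 2805 with a median of 1827 in R and from 825 to 1614 with a median of 1091 in NR tumors, a difference of 0.71 ± 0.23 (adjusted p = 0.0449). For none of the 10 members did all R isotype tumors lie above all NR isotype tumors, which 0.572% of genes did.

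These calls changed with the test and with single tumors. With edgeR, 0 of 10 members were called, beside 0.122% of genes, with adjusted p-values of 0.111 for Gbp2b and 0.103 for Gbp5, and by DESeq2 5 of 10 had an unadjusted p under 0.05, as had 13.4% of genes in either direction. Over the 12 fits without 1 tumor, Gbp2b was called in 6 and Gbp5 in 5. Without the CC080F1 isotype tumor of replicate 1, the NR tumor richest in Gbp2b, 4 of 10 were called, beside 8.43% of genes called in either direction. The count was 0 without CC036F1 isotype replicate 1 (beside 3.43%), CC036F1 isotype replicate 2 (4.1%) or CC079F1 isotype replicate 2 (2.85%), and 1 in 7 of the other fits. Without CC002F1 the Gbp2b difference was 0.92 and DESeq2 gave it no adjusted p, whereas Gbp5 was called at 0.91 (adjusted p = 0.000261) and Gbp7 at 0.52 (0.0439), beside 2.01% of genes.

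In aPD1 tumors 8 of 10 members were higher in R hosts, all but Gbp9 and Gbp10, beside 5.94% of 17161 genes called higher. The aPD1 tumors of R hosts lay entirely above those of NR hosts for Gbp2b and Gbp8, which 3.24% of genes did. Gbp2b ran from 277 to 2889 normalized counts with a median of 1371 in 6 R tumors and from 33.7 to 195 with a median of 121 in 5 NR tumors. The log2 difference was 3.73 ± 0.63 (DESeq2 adjusted p = 6.71e-07). Gbp8 ran from 774 to 2342 in R and from 312 to 696 in NR tumors, a difference of 1.49 ± 0.31 (adjusted p = 0.000127).

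For Gbp2, Gbp3, Gbp5, Gbp7, Gbp4 and Gbp6 the overlap came from a single NR tumor. In each of them 4 of the 5 NR aPD1 tumors lay below the lowest R aPD1 tumor, and CC036F1 aPD1 replicate 1 lay above it. Gbp5 had 2299 normalized counts in that tumor and 937 to 1317 in the other NR tumors, against 2153 to 5881 in R tumors, and its log2 difference was 1.38 ± 0.32 (DESeq2 adjusted p = 0.000948). Without that tumor 10 of 10 members were called, beside 5.69% of genes in either direction. Gbp4 differed by 1.10 ± 0.27, Gbp6 by 0.90 ± 0.29, Gbp3 by 0.84 ± 0.19, Gbp2 by 0.83 ± 0.25 and Gbp7 by 0.77 ± 0.17. With edgeR 6 of 10 were called, beside 2.25% of genes, and Gbp2 and Gbp6 had adjusted p-values of 0.0513 and 0.0638. A limma fit that took line as a random effect called 2 (Gbp4 and Gbp8, each at 0.0460), beside 0.798% of genes. Without CC001F1 aPD1 replicate 2 DESeq2 called 6, beside 5.96% of genes in either direction.

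Markers of other cells moved with this contrast. All 6 T and NK markers, 4 of 6 macrophage markers, 2 of 3 cDC1 markers and Ptprc were higher in R aPD1 tumors. Of 4 endothelial markers 1 was higher (Pecam1). DESeq2 called 5.94% of all genes higher in this contrast. All 4 skeletal muscle markers were higher, with a median log2 difference of 5.52, and their sum ran from 18.8 to 12669 normalized counts in R and from 12.7 to 208 in NR aPD1 tumors. All 4 B cell markers were lower, with a median of -3.00 and a sum of 46.2 to 182 in R and 137 to 3142 in NR aPD1 tumors, and S100a9, 1 of 3 granulocytic markers, was lower. The part of these markers in the Gbp differences was not tested.

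The second question was how aPD1 moved the family within hosts. Among R tumors, in a model that held line, 9 of 10 members were higher after aPD1, beside 4.85% of 15701 genes called higher, and the median log2 difference was 0.86 against -0.012 for all genes. The mean was higher in each of the 3 R lines for 10 of 10 members, which 18.6% of genes showed. For no member did all 6 aPD1 tumors lie above all 6 isotype tumors, which 0.647% of genes did. Gbp2b rose from a mean of 461 ± 497 (SD, n = 6) to 1412 ± 992 (n = 6), a log2 difference of 2.14 ± 0.45 within lines (DESeq2 adjusted p = 0.000663).

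The other members called rose by less on the log2 scale. Gbp8 rose by 1.01 ± 0.28, Gbp4 by 0.90 ± 0.23, Gbp10 by 0.88 ± 0.19, Gbp5 by 0.87 ± 0.24 and Gbp6 by 0.84 ± 0.16. Gbp3 rose by 0.67 ± 0.13, Gbp2 by 0.63 ± 0.15 and Gbp7 by 0.55 ± 0.13 (DESeq2 adjusted p-values of 0.000121 to 0.0132 for these 8). Gbp9 had a difference of 0.47 ± 0.17 with an adjusted p of 0.0818. Gbp10 had 338 ± 102 (SD, n = 6) normalized counts in R isotype and 612 ± 129 (n = 6) in R aPD1 tumors, beside 334 ± 151 (n = 6) and 438 ± 154 (n = 5) in NR tumors.

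The values by R line rest on 2 tumors against 2 and were not tested for a difference between lines. In CC002F1 the 10 members differed by 0.78 to 1.60 on the scale of mean log2(normalized count + 1), with a median of 1.10, and Gbp10 moved most. CC075F1 had a median of 0.99, and in CC001F1 it was 0.31, where Gbp2b moved by 2.20 and the other 9 members by 0.10 to 0.40. For Gbp2, CC002F1 had 11752 and 13034 normalized counts with isotype and 23602 and 19199 with aPD1, whereas CC001F1 had 15979.8 and 22886 with isotype and 16892 and 26930.3 with aPD1. The isotype and aPD1 tumors of CC001F1 overlapped for Gbp2, and those of CC002F1 did not.

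Of the immune cell markers, DESeq2 called 1 of 6 for T and NK cells (Ifng) higher after aPD1 in R lines. Also called higher were 3 of 6 for macrophages (Adgre1, Cd68 and C1qa), 2 of 3 for cDC1 and 1 of 3 for plasmacytoid dendritic cells (Ccr9). Beside these, DESeq2 called 4.85% of all genes higher, and edgeR called 0 of 24858 genes. The part of these markers in the Gbp differences was not tested.

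Several calls rest on CC002F1 or on the test used. Without CC002F1, 2 of 10 members were called by DESeq2 (Gbp2b, adjusted p = 0.00432, and Gbp3, 0.0340), beside 1.45% of genes, and the log2 differences of the other 8 lay between 0.19 for Gbp9 and 0.79 for Gbp5. With edgeR 0 of 10 were called, as were 0 of 24858 genes, at adjusted p-values of 0.0634 to 0.0698 for the 9 members other than Gbp9, while all 10 had an unadjusted DESeq2 p under 0.05, as had 11% of genes. Without the shallow libraries 10 of 10 were called, beside 5.91% of genes, and without CC001F1 aPD1 replicate 2 there were 6, beside 2.16% in either direction.

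In NR lines no member was called after aPD1 by DESeq2 or by edgeR, beside 0.0448% and 0.0204% of 24552 genes called, and 0 of 10 had an unadjusted DESeq2 p under 0.05. The median log2 difference of the members was 0.21, and their 95% intervals reached from -0.48 for Gbp9 to 2.27 for Gbp2b. Gbp2b had 73.4 ± 82.2 (SD, n = 6) normalized counts with isotype and 107 ± 62.4 (n = 5) with aPD1, a log2 difference of 0.94 ± 0.68. Its values rose in CC036F1 and CC079F1, by 1.26 and 1.77, and fell by 1.44 in CC080F1, where the single aPD1 tumor stood against isotype tumors of 239.6 and 35.9. Per-line differences in CC080F1 were below 0 for 6 of 10 members. In each of the 3 NR lines the aPD1 mean was higher for 3 of 10 members (Gbp6, Gbp8 and Gbp10), against 11.4% of genes.

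**Figure D3:**
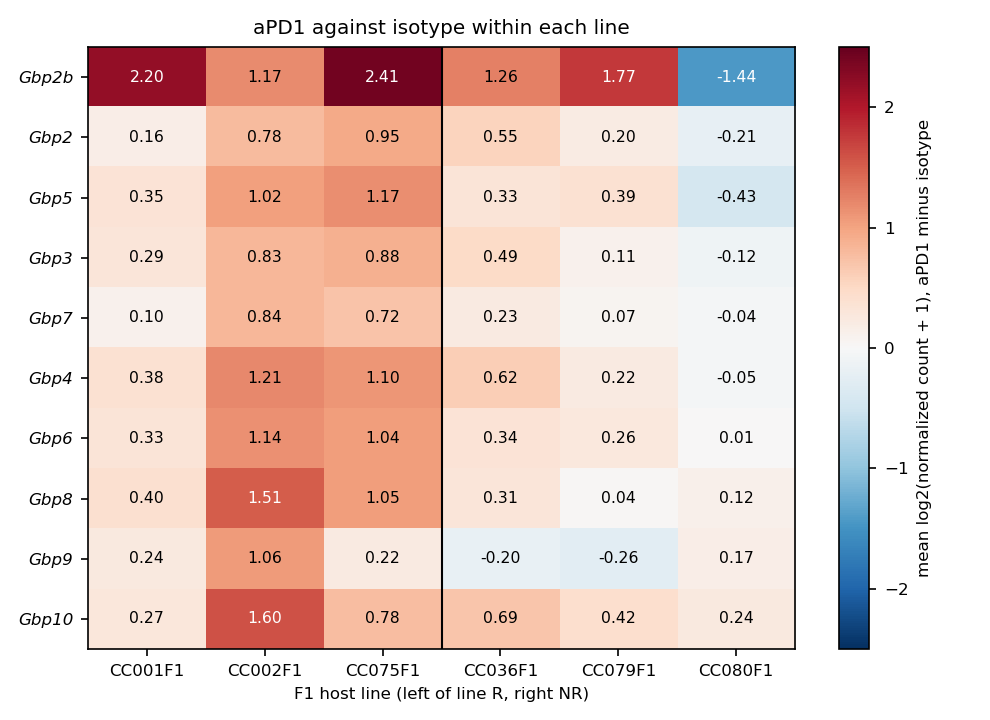
Difference between aPD1 and isotype tumors within each F1 host line for the 10 Gbp genes, as mean log2(normalized count + 1) of aPD1 minus isotype, with R lines left of the black line. All 30 values of R lines are above 0, the CC001F1 values are small except that of Gbp2b, and the CC080F1 column rests on 1 aPD1 tumor.

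The difference of the antibody effect between R and NR lines was tested directly. DESeq2 called 0 of 10 members, beside 0.0342% of 26342 genes, and edgeR called 0 members and 0 genes. Point estimates were above 0 for 10 of 10 members, with a median of 0.62 on the log2 scale, and 2 of 10, Gbp8 and Gbp9, had an unadjusted p under 0.05, as had 6.65% of genes. Gbp8 had a difference of 0.93 ± 0.42 (DESeq2 adjusted p = 0.644) and Gbp9 of 0.61 ± 0.28 (0.656). For these 2 of the 10 members every R line effect exceeded every NR line effect, which 7.57% of genes showed. The interval of Gbp2b, -0.35 to 2.78, holds both no difference and a large one. Without the shallow libraries Gbp8 alone was called (DESeq2 adjusted p = 0.0126), beside 0.192% of genes. Calls in R lines and their absence in NR lines thus do not establish that the effects differ. Over all 6 lines together, 2 of 10 members were higher after aPD1, Gbp2b by 1.64 ± 0.41 (DESeq2 adjusted p = 0.0106) and Gbp10 by 0.66 ± 0.17 (0.0145), beside 2.55% of genes called higher. That count was 8 without the CC080F1 isotype tumor of replicate 1 (beside 4.02% of genes in either direction), 7 without CC001F1 aPD1 replicate 1 (5.15%) or the CC080F1 aPD1 tumor (4.68%), 3 to 5 without any of 5 other tumors, 1 without CC001F1 aPD1 replicate 2 (0.964%), 1 without CC002F1 (Gbp2b, beside 1.75% of genes) and 0 with edgeR (beside 0.0569%), and 9 of 10 had an unadjusted DESeq2 p under 0.05, as had 9.51% of genes.

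Host lines were then compared one by one. A likelihood ratio test of the line term called 8 of 10 members over the 6 lines, all but Gbp9 and Gbp10, beside 16% of 19192 genes. Over the 15 pairs of lines, 22 of 150 member and pair tests passed a DESeq2 adjusted p of 0.05. All 22 were between an R and an NR line with the R line higher, and 0 of 60 tests within a class passed, where 0.336%, 0.358% and 0.323% of genes were called between R lines and 5.6%, 7.47% and 0.584% between NR lines. CC075F1 against CC079F1 gave 7 members, beside 5.55% of genes called, and CC001F1 against CC079F1 gave 6, beside 6.01%. CC002F1 differed from each NR line in Gbp2b alone (9.30%, 2.96% and 0.514% of genes called against CC036F1, CC079F1 and CC080F1), and against CC080F1 CC001F1 gave 0 members (1.3%) and CC075F1 gave 1, Gbp8 (0.574%). Against CC036F1, CC001F1 gave 2 (13.7%) and CC075F1 3 (13.8%).

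The order of line means was not the same for every member. Gbp2b was highest in CC002F1 (1802 normalized counts), then CC075F1 (551), CC001F1 (457), CC080F1 (103), CC079F1 (102) and CC036F1 (63.7). Gbp5, Gbp6, Gbp7, Gbp8 and Gbp10 were highest in CC075F1 and Gbp2, Gbp3 and Gbp4 in CC001F1. Gbp9 was highest in CC036F1, an NR line (4639 normalized counts). These line means included both antibodies. For Gbp10 the means of CC075F1, CC001F1 and CC002F1 were nearly equal (475.3, 474.7 and 474.7). Gbp6 and Gbp10 share sequence with Gm43302, whose median was 31.5 in CC075F1 and 1109 in CC001F1. The part of divided reads in the order of Gbp6 and Gbp10 was not tested. No 2 neighbours in any of the 10 orders differed, with adjusted p-values of 0.339 or more over 50 neighbouring pairs. CC079F1 had the lowest mean for Gbp2, Gbp3, Gbp5, Gbp7, Gbp6 and Gbp10.

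Gbp2b was the one member that differed among the 3 R lines (DESeq2 likelihood ratio test, adjusted p = 0.00119), beside 1.05% of 19074 genes, and without CC002F1 0 of 10 members were called, beside 0.441%. Relative to its neighbour Gbp2 in the same tumor, CC002F1 isotype tumors had 8.80 and 8.94 counts of Gbp2b per 100 of Gbp2, and aPD1 tumors 12.2 and 11.04. The other isotype tumors ranged from 0.30 to 1.45 per 100, and the other aPD1 tumors from 0.32 in CC080F1 to 5.02 in CC075F1. CC002F1 thus stood above every other tumor on this ratio, with and without aPD1. In contrasts of R lines, the log2 level of Gbp2b in CC002F1 exceeded that in CC075F1 by 2.06 ± 0.68 (DESeq2 adjusted p = 0.378), and the difference of CC001F1 minus CC002F1 was -2.31 ± 0.68 (0.144). No member differed among the 3 NR lines by DESeq2, beside 9.46% of 16936 genes, although 3 of 10 had an unadjusted p under 0.05, as had 14% of genes, and edgeR called 1, beside 4.42% of genes.

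**Figure D4:**
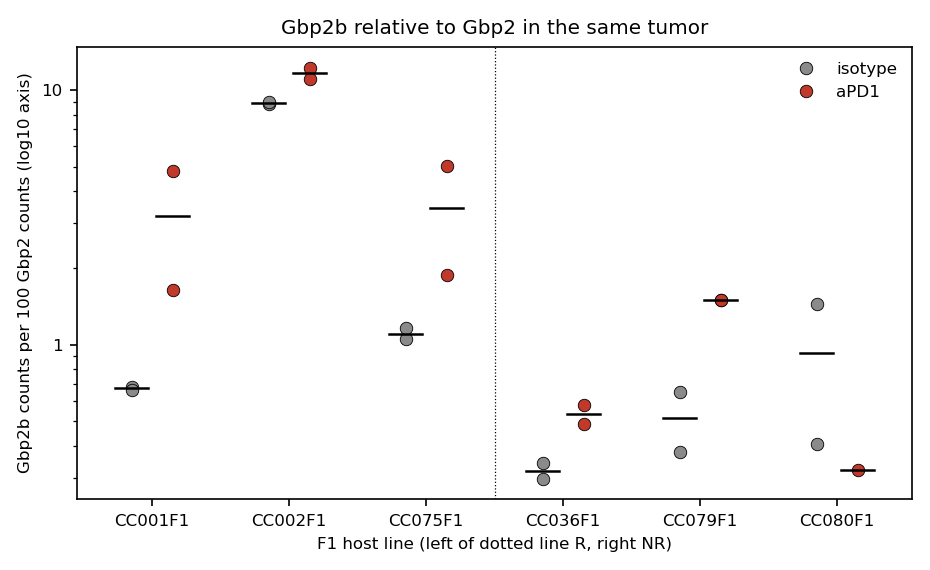
Counts of Gbp2b per 100 counts of Gbp2 in each tumor (log10 axis) by F1 host line, isotype in grey and aPD1 in red, with bars at the mean of each group. The 4 CC002F1 tumors lie between 8.80 and 12.2 and every other tumor at or below 5.02.

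Across the 23 tumors the members moved together to different degrees. Pearson's r of log2(normalized count + 1) ran from 0.18 to 0.98 over the 45 pairs of members, with a median of 0.80, and these points share their libraries and depth. Without Gbp2b and Gbp9 the 28 remaining pairs had a median of 0.92. Pairs within a cluster and pairs across the clusters of chromosomes 3 and 5 had medians of 0.81 and 0.80. Gbp2b had a median r of 0.68 with the other members over all tumors, and 0.88 when the mean of each line and antibody group was removed from the 22 tumors with a partner. Gbp9 had a median of 0.59, and 0.77 with group means removed.

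**Figure D5:**
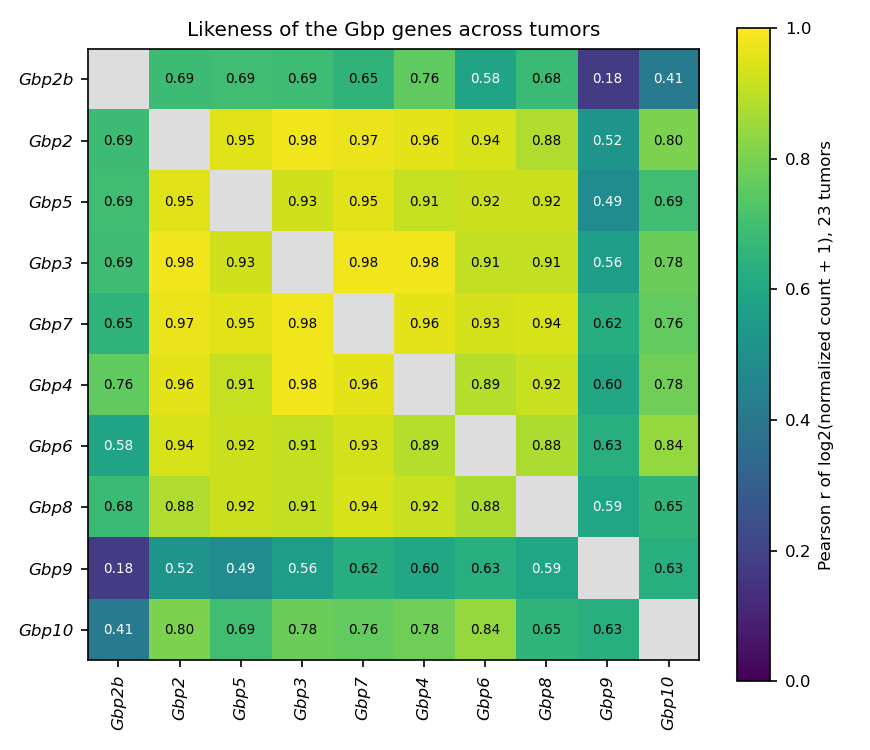
Pearson's r between pairs of Gbp genes over log2(normalized count + 1) in 23 tumors, as a description without a test. Gbp2, Gbp5, Gbp3, Gbp7, Gbp4, Gbp6 and Gbp8 form a block of high values, and the pair of Gbp2b and Gbp9 is lowest at 0.18.

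Outside the family, 12045 genes with a mean of at least 100 normalized counts were ranked by likeness to the mean of the 10 members over the 23 tumors. Among the most alike were Tap1 (r = 0.96), Batf2 (0.95), Igtp (0.95), Irgm2 (0.94), Slamf8 (0.94), Nlrc5 (0.94), Irgm1 (0.94), Gm12250 (0.94) and Plbd1 (0.93). Tap1 loads peptides for MHC class I, Nlrc5 drives MHC class I genes, and Igtp, Irgm1 and Irgm2 are immunity-related GTPases. For Gbp2b alone the 5 most alike were Serpina3g (0.88), Scimp (0.87), Plcb2 (0.86), Bcl2a1d (0.86) and Iqgap2 (0.86). The r of Iqgap2 fell to 0.25 once group means were removed, and those of the other 4 stayed between 0.72 and 0.88.

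Genes around the family in the same pathway were taken from lists. Of 14 genes of the interferon signal to the Gbp genes, 7 were higher in R tumors over all tumors and none lower. Beside this, 7.66% of all genes were called higher. Ifng, the ligand, differed by 1.89 ± 0.33 (DESeq2 adjusted p = 1.75e-06), the transcription factors Irf1, Irf8 and Batf2 by 0.31 to 0.95, and the feedback inhibitors Socs1 and Socs3 by 0.36 and 0.39. The receptors Ifngr1 and Ifngr2 and the kinases Jak1 and Jak2 were not called. In R lines after aPD1 10 of these 14 were higher by DESeq2, beside 4.85% of genes, with Ifng at 1.50 ± 0.37 (DESeq2 adjusted p = 0.00365). By edgeR 0 of 24858 genes were called there. In NR lines 0 of 14 were called by DESeq2, beside 0.0448% of genes. These counts do not establish that the effects of aPD1 differ between R and NR lines.

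The immunity-related GTPases act beside Gbp proteins at pathogen vacuoles. All 7 with values were higher in R tumors (beside 7.66% of all genes), from 0.54 ± 0.13 for Ifi47 to 1.32 ± 0.25 for Tgtp1. By DESeq2 all 7 were also higher after aPD1 in R lines (beside 4.85%), from 0.70 for Ifi47 to 1.01 for Tgtp1. By edgeR 0 of 24858 genes were called in that comparison. In aPD1 tumors 7 of 7 were higher in R hosts (beside 5.94%) and in isotype tumors 1 of 7 (Tgtp1, beside 2.29%). Over all lines 7 of 7 were higher after aPD1 by DESeq2 (beside 2.55%), where 2 of 10 Gbp members were. By edgeR 0.0569% of genes were called over all lines. In NR lines 0 of 7 were called (beside 0.0448%). The list entry Irgb10 had no value under that symbol, and other names of the gene were not looked up.

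The other lists hold genes that act beside or upstream of the Gbp proteins. Beside their counts, DESeq2 called 7.66% of all genes higher in R tumors over all tumors and 4.85% higher after aPD1 in R lines. In the latter comparison edgeR called 0 of 24858 genes. Of 8 inflammasome partners, Pycard (an adaptor, 0.61 ± 0.15) was the 1 called over all tumors between classes, and Casp1, Casp4, Nlrp3 and Il1b rose after aPD1 in R lines. Of 6 type I interferon genes, Tyk2 was called between classes and Irf7 rose by 1.22 ± 0.33 after aPD1 in R lines. Of the 8 genes listed for the ATG8 conjugation system in Gbp targeting, 0 were called between classes over all tumors. Among them Gabarap rose by 0.18 ± 0.051 after aPD1 in R lines. The 5 enzymes that attach and process the lipid anchor and the 3 atlastins, structural relatives of the Gbp proteins, had 0 calls in both comparisons. In aPD1 tumors, 6 of 14 interferon signal genes, 4 of 8 inflammasome partners and 3 of 6 type I interferon genes were higher in R hosts, beside 5.94% of all genes, and Atg12, 1 of the 8 ATG8 conjugation genes, was lower.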

How the data were processed

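Poly(A) RNA of 23 bulk MC38 tumors was sequenced. The authors mapped reads with Bowtie 1.2.3 to founder-strain transcriptomes (GENCODE vM23 on GRCm38) and deposited expected counts per gene, estimates, unscaled for depth, that divide a read matching several genes or haplotypes among them. Of these values 16.9% were not whole numbers, and they were rounded before testing. Names and coordinates came from GENCODE vM21, which matched 26681 of 26869 identifiers. Normalized counts were expected counts divided by DESeq2 size factors.

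Genes with at least 5 summed counts were tested with DESeq2 1.42.0 in R 4.3.3 (Wald test or likelihood ratio test, default options), following the study, with Benjamini-Hochberg adjustment over all genes and calls at an adjusted p under 0.05. Tumors of a line were treated as independent in tests of class. Files were checked for duplicate libraries: the counts of the 11 replicate pairs differed beyond sampling noise (chi-square over its degrees of freedom 9.73 to 135.9). The class of each line came from the study's text. Alternatives, planned or added after seeing the data (CC002F1 left out, filtering at 0.05, edgeR with filterByExpr, the summed Gbp6 locus), used edgeR 4.0.16 and limma 3.58.1. Scripts were tested on simulated data. The members and lists were chosen with earlier results of these data known. All 10 members are reported, with values by tumor for those with the largest differences and those that departed from the rest, and the genes most alike were the 10 (family) and 5 (Gbp2b) with the highest r. The result of 1 gene that these rules name is not reported here.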

Additional observations from a re-analysis of the deposited data

Results flagged for a closer look

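Gbp2b in the isotype tumors of NR hosts held 1 tumor far from the others. CC080F1 isotype replicate 1 had 239.6 normalized counts, and the next of the 6 tumors had 61.5. On the scale of log2(normalized count + 1), the gap made up 0.679 of the range of the group. It was the 1 such tumor in 40 sets of tumors examined (10 members in 4 combinations of class and antibody), of which about 1 in 20 would be marked by chance. The same tumor was also the highest NR isotype tumor for Gbp2, Gbp3, Gbp5, Gbp7, Gbp4, Gbp6 and Gbp8.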

How the results depend on the processing

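Over the alternatives, the 7 members called between R and NR hosts over all tumors ranged from 5 to 8. The 5 came without the shallow libraries, beside 9.83% of all genes. Without any 1 tumor the count was 7 to 8, beside 12.2% to 16.4%. Shares and counts of genes here cover calls in either direction. In isotype tumors the count of 2 became 0 with edgeR (0.122% of genes) and with edgeR and filterByExpr (28 of 16239 genes). It was also 0 with limma (3 of 24538) and without the shallow libraries (44 of 19844). With the replicate block it was 1 (1005 of 14504), and without 1 tumor 0 to 4 (2.71% to 12.4%). In aPD1 tumors the 8 became 2 with limma (0.798% of genes), 6 with edgeR (2.25%) and 6 to 10 without 1 tumor (5.69% to 9.04%). Of those 11 fits without 1 tumor, Gbp2 was called in 7 and Gbp6 in 4. Within R lines the 9 members higher after aPD1 became 0 with either edgeR fit, where 0 of 24858 and 0 of 17945 genes were called. The count was 2 without CC002F1 (1.45% of genes) and 6 to 10 without 1 tumor (2.16% to 8.91%). Over all lines the 2 became 0 with edgeR (0.0569% of genes) and with edgeR and filterByExpr (6 of 18723 genes). It was also 0 without the shallow libraries (232 of 15978). The count was 1 without CC002F1 (1.75%) and 1 to 8 without 1 tumor (0.964% to 5.15%). The difference of the aPD1 effect gave 1 member without the shallow libraries, beside 0.192% of genes. Among the 6 lines the 8 members became 4 without the shallow libraries (2409 of 19520 genes) and 4 to 8 without 1 tumor (13% to 19.4%). Among R lines the 1 became 2 without the shallow libraries (215 of 18951 genes) and 0 with edgeR and filterByExpr (74 of 17945). It was 0 without CC002F1 (0.441%) and 1 to 5 without 1 tumor (0.742% to 1.62%). Among NR lines the 0 became 1 with edgeR (4.42% of genes) and 1 without the shallow libraries (1265 of 18036 genes). Without 1 tumor it was 0 to 3 (6.49% to 10.2%). The cause of these changes was not tested. Directions turned only for members that were not called. For Gbp9 over all tumors the log2 difference was -0.012 with the replicate block and -0.045 to 0.073 without 1 tumor. In isotype tumors Gbp6 was at -0.12 without the shallow libraries, and Gbp10 at -0.0049 with edgeR, -0.011 with edgeR and filterByExpr, -0.12 with limma, -0.42 without the shallow libraries and -0.14 to 0.22 without 1 tumor. After aPD1 in NR lines, without the shallow libraries, Gbp2 was at -0.080, Gbp3 at -0.13, Gbp5 at -0.025, Gbp7 at -0.094, Gbp4 at -0.0039 and Gbp6 at -0.028. Without 1 tumor Gbp5 ranged from -0.023 to 0.41, Gbp7 from -0.029 to 0.22 and Gbp8 from -0.013 to 0.30 there. For same-numbered tumors, the correlation of deviations from group means ran from -0.40 to 0.37 over 55 pairs of groups, with a median of -0.0086. It was over 0.1 in 14 pairs and under -0.1 in 16. These values cannot exclude a day or batch shared by some same-numbered tumors.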

Other observations

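Gm43302, the gene on chromosome 5 that shares most sequence with Gbp6 and Gbp10, varied widely between lines. Its normalized counts ran from 753 to 2130 (median 1109) in CC001F1 and from 543 to 1657 (median 991) in CC002F1, whereas CC075F1 had 0.94 to 341 (median 31.5). The NR lines had medians of 279 in CC036F1, 308 in CC079F1 and 193 in CC080F1. How reads were divided among Gm43302, Gbp6 and Gbp10 in each line was not tested. Gbp11, a relative outside the list, was low in every line, with medians of 9.80 in CC080F1 to 78.0 in CC075F1.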
